A study of Mus musculus with 8 samples.

Results

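Fatty acid oxidation is the route by which cells take energy from fat. Acyl chains enter mitochondria through the carnitine shuttle and are shortened there by a cycle of dehydrogenation, hydration, a further dehydrogenation and thiolysis, while peroxisomes handle very long and branched chains and lipases and phospholipases free the chains from stored fat, lipoproteins and membranes. Embryonic stem cells (ESCs) rely heavily on glucose and glutamine but also express this machinery. A list of 31 genes of these steps was followed across 8 arrays, chosen by name from knowledge of the pathway and with earlier results of these arrays in view. All 31 have a probe set that carries their symbol alone, among 18194 genes so named, and each was represented by the probe set with the highest mean signal. They comprise 3 genes of the carnitine shuttle, 14 of mitochondrial oxidation, 4 of peroxisomal oxidation, 8 lipases and phospholipases, and 2 others, the thioesterase Acot1 and the transcription factor Ppara. Of the 31, 27 had a mean signal above the median of all probe sets. Ehhadh, Lipe, Mgll and Ppara lay below it, where ratios of signal are compressed.

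The cells were male 129sv NS tet-off ESCs. Both NS alleles (the gene Gnl3, which encodes nucleostemin) are disrupted in them, and an NS cDNA in the ROSA26 locus is shut off by doxycycline (Dox). The Dox-treated arrays hold cells after 6 days of Dox and the Dox-untreated arrays hold NS-expressing cells. Each state was measured once in 4 backgrounds: empty vector cells exposed to the 2i condition (inhibitors of MEK and GSK3b), Nanog-overexpressing cells, Esrrb-overexpressing cells and empty vector cells in standard medium with LIF and serum, called empty vector cells here. The forced factors came from stably integrated vectors under puromycin selection, and whether cells of several clones were pooled is not given in the sources used here. A pair means the Dox-treated and the Dox-untreated array of 1 background, and its log2 ratio is Dox-treated minus Dox-untreated.

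Several facts of the series bear on what follows. Gnl3 was lower on every Dox-treated array, with log2 ratios between -5.68 and -4.56. Signal of Nanog was 12.23 and 12.35 on the Dox-treated and Dox-untreated Nanog arrays, against 12.49 and 12.81 on those of empty vector cells, so the arrays did not show the forced expression of Nanog. Esrrb likewise stood at 11.38 and 11.27 on the Esrrb arrays, against 10.38 and 11.31 on the empty vector arrays. Whether these probe sets lie in the part carried by the vectors is not given in the sources used here. Dusp6, a gene that MEK and Erk signalling induces, had a signal of 7.63 on the Dox-treated and 10.95 on the Dox-untreated 2i array. It was 10.97 on the Dox-untreated empty vector array. Spry4, also used for this check, had 4.07 and 9.92 on the same 2i arrays, against 9.17 and 10.17 on those of empty vector cells. The 2i Dox-untreated array thus went against its label in this check. If it lacked 2i, effects of 2i and of Dox cannot be told apart in the 2i pair. For Acadvl, Hadha and the test of a forced factor, results are therefore also given without the 2i pair. All 7 ESC markers were above the median signal on every array, a check that does not show whether Dox lowered them. With the empty vector 4 of the 7 were lower after Dox, down to a log2 ratio of -0.61 for Sall4. Among 2i cells 5 were lower, down to -1.12 for Utf1. The middle marker stood at -0.33 with the empty vector and -0.23 with 2i, against 0.07 with Nanog and 0.11 with Esrrb. With Nanog 3 of the 7 were lower, and with Esrrb 2. The 12 trophoblast markers were all higher in both the 2i and the empty vector pair, with 7 and 8 of them over 2-fold, and the log2 of their summed signal was 12.6 and 13.8 on these Dox-treated arrays, against 10.9 and 10.6 on the Dox-untreated arrays. In the Nanog and Esrrb pairs 0 of the 12 were over 2-fold higher. The part of this shift in the results was not tested. In such bulk samples fewer cells of a type and less RNA per cell cannot be told apart. Of 4 adipocyte markers measured, 0 were above the median signal on any array.

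In cells with the empty vector, enzymes that free fatty acids or split membrane lipids made up 4 of the 5 members that were over 2-fold lower after Dox: Lpl, Pla2g10, Pla2g1b and Plcd1, beside Cpt1a. Acadvl and Mgll were over 2-fold higher there. In the 2i pair Plcd1, Pla2g10 and Acot1 were over 2-fold lower, and Slc25a20 and Mgll over 2-fold higher. In the Nanog and Esrrb pairs 0 of the 31 passed 2-fold in either direction. These counts of lower members are 16.1% of the list in the empty vector pair, where 3.85% of all genes were, and 9.68% in the 2i pair, where 3.1% were. For over 2-fold higher the shares were 6.45% in both pairs, against 4.81% of all genes in the 2i and 5.36% in the empty vector pair. Of all genes 1.17% were over 2-fold lower and 1.13% higher in the Nanog pair, and 0.967% and 1.06% in the Esrrb pair, so that a count of 0 among 31 is close to what all genes gave. The list was chosen with earlier results of these arrays in view, so its larger shares of lower genes are no independent evidence. Dim genes, whose ratios are compressed, were also fewer in it. Above the median signal were 27 of the 31 members and 11623 of the 18194 genes. With 1 array per condition there is no replicate check within a pair and no test was made there.

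**Figure D1:**
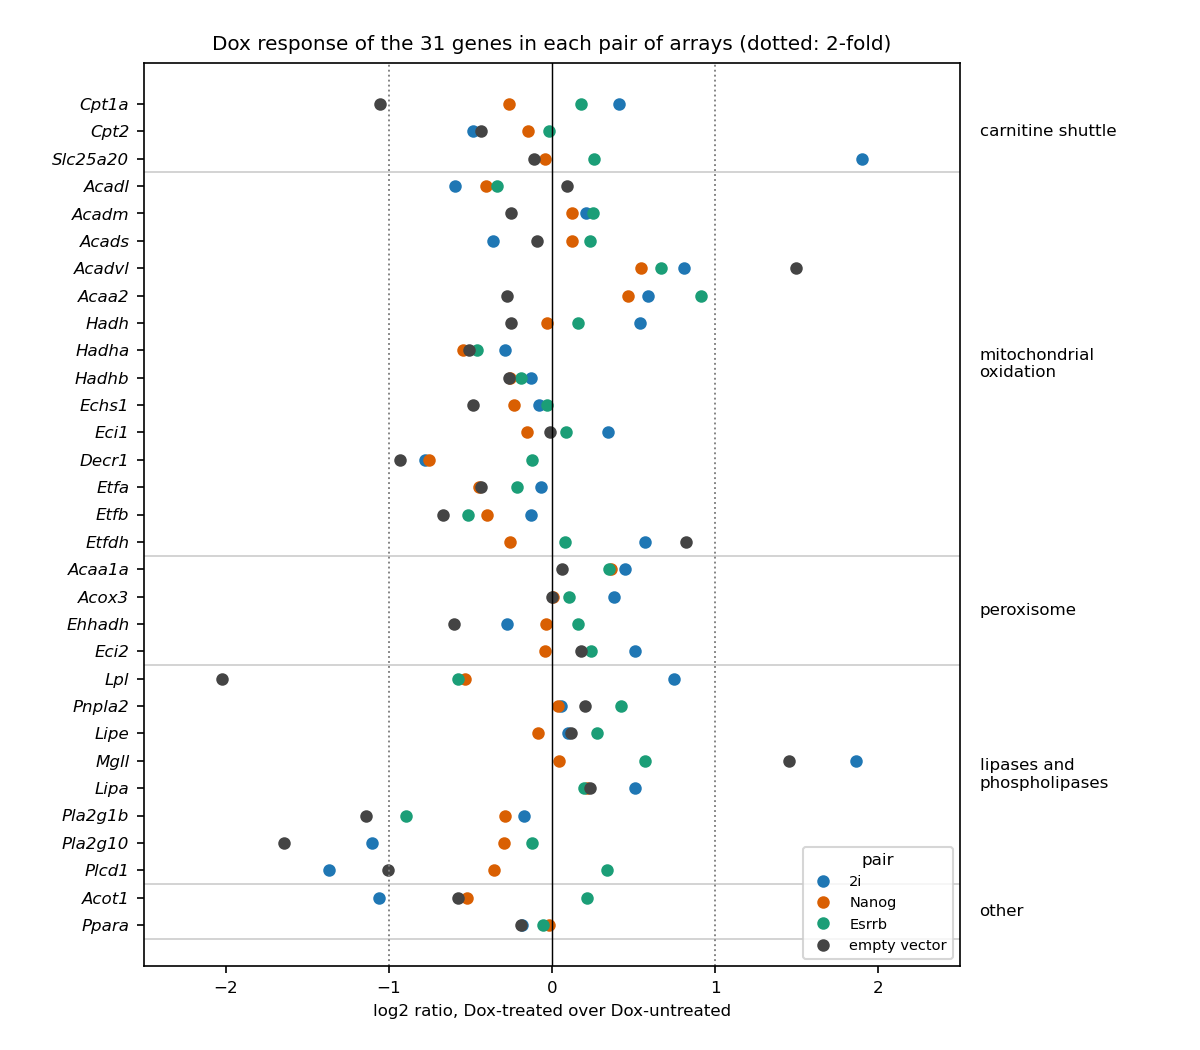
Signal after Dox over signal without Dox, as a log2 ratio (horizontal axis), for each of the 31 genes (rows, by function), with 1 point per pair of arrays coloured by background and dotted lines at 2-fold. Lpl in the empty vector pair, at -2.02, and Slc25a20 in the 2i pair, at 1.90, lie farthest from 0.

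The median log2 ratio of the 31 genes was 0.05 in the 2i, -0.15 in the Nanog, 0.16 in the Esrrb and -0.25 in the empty vector pair. Over all genes it was 0.03, -0.01, 0.00 and -0.03 in the same pairs. The sign of the 2i median turned when all probe sets of a gene were averaged, to -0.07. For the 17 genes of the carnitine shuttle and mitochondrial oxidation the medians were -0.07 in the 2i, -0.23 in the Nanog, 0.08 in the Esrrb and -0.27 in the empty vector pair. For the 4 peroxisomal genes they were 0.42 in the 2i, -0.01 in the Nanog, 0.20 in the Esrrb and 0.03 in the empty vector pair. The 8 lipases and phospholipases had 0.07 in the 2i, -0.19 in the Nanog, 0.24 in the Esrrb and -0.44 in the empty vector pair, with a range of -2.02 to 1.45 in the last. Of these 3 functions the lipases had both the lowest median and the widest spread in the empty vector pair. They were split there, with 4 higher and 4 lower, so the median stands for no single gene. The 4 peroxisomal genes had the narrowest spread, from -0.60 to 0.18. The sets differ in size, and 14 further peroxisomal genes outside the list ran from -0.64 to 1.39 in the empty vector pair. In that pair 32 further lipases and lipid hydrolases outside the list had a median of 0.14, with 17 higher and 15 lower. The low median of the 8 listed lipases therefore did not extend to them. Of the 17 shuttle and mitochondrial genes 14 were lower with the empty vector (82.4%, against 54.2% of all genes), but only Cpt1a by over 2-fold. The Nanog pair came close to this, with 13 of the 17 lower (76.5%, against 52% of all genes). With 2i 9 were lower (52.9%, against 46.4%), and with Esrrb 8 (47.1%, against 49.5%). Outside the list, 8 of 14 further mitochondrial genes were lower after Dox with the empty vector, and the median of the 14 was -0.07. These differences between the functions are a description over few genes, with no test.

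Across backgrounds, limma tested the Dox response common to the 4 pairs, with the background as a block, over all 18194 genes. Of the 31 genes, Acadvl rose and Hadha fell at an adjusted p under 0.05. Both act at the inner mitochondrial membrane on long chains: Acadvl encodes very long-chain acyl-CoA dehydrogenase, which opens the cycle, and Hadha the alpha subunit of the trifunctional protein, which takes the product on. Of all genes, 3.69% rose and 3.39% fell, so 1 in each direction among 31 is near the share of all genes. At an unadjusted p under 0.05 there were 8 members lower (25.8%, against 14% of all genes) and 4 higher (12.9%, against 13.4%). With any 1 pair left out, 0 of the 31 passed. Those fits hold 6 arrays, and 3 to 35 genes passed in them, rather than 1287 with all pairs.

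**Figure D2:**
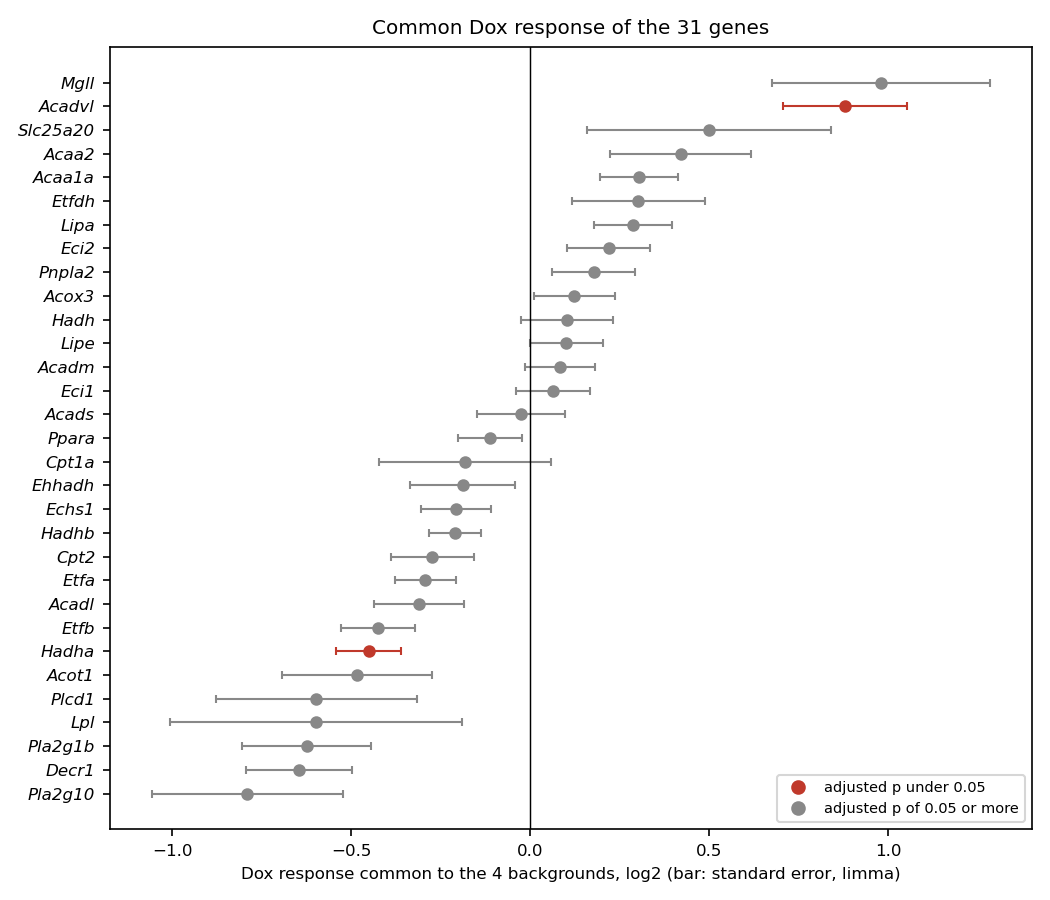
Dox response common to the 4 backgrounds on the log2 scale (horizontal axis) for the 31 genes, ordered by size, with bars for the standard error from limma and red for an adjusted p under 0.05. Acadvl at 0.88 and Hadha at -0.45 are the red points, and Mgll at 0.98 has a larger estimate with a standard error of 0.305.

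On the Dox-treated arrays the log2 signal of Acadvl was 9.33 in 2i, 8.51 in Nanog, 8.87 in Esrrb and 9.24 in empty vector cells, against 8.52 in 2i, 7.97 in Nanog, 8.20 in Esrrb and 7.74 in empty vector cells on the Dox-untreated arrays. It was higher after Dox in every background, although the Dox-treated Nanog array lay just under the Dox-untreated 2i array. The common response was 0.88 with a standard error of 0.173, and every pair was higher (limma, adjusted p = 0.0429). The empty vector pair differed most, 2.82-fold, and the Nanog pair least, 1.46-fold. Without the 2i pair the response was 0.90 (adjusted p = 0.117 from limma). Over the fits that left out 1 pair it ranged from 0.67 to 0.99, with adjusted p from 0.0788 to 0.117.

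For Hadha the log2 signal on the Dox-treated arrays was 8.84 in 2i, 8.73 in Nanog, 8.98 in Esrrb and 8.65 in empty vector cells, against 9.13 in 2i, 9.27 in Nanog, 9.44 in Esrrb and 9.16 in empty vector cells on the Dox-untreated arrays. All Dox-treated arrays lay below all Dox-untreated arrays. The common response was -0.45 with a standard error of 0.0909, each of the 4 pairs being lower (limma, adjusted p = 0.0447), and without the 2i pair it was -0.50 (adjusted p = 0.0925 from limma). With 1 pair left out, the adjusted p from limma ran from 0.0925 to 0.140. Hadhb encodes the beta subunit, the thiolase of the same protein. Its signal ran from 10.23 to 10.30 on the Dox-treated arrays and from 10.43 to 10.49 on the Dox-untreated arrays, again with no overlap. The response was smaller, -0.21 (standard error 0.0721, adjusted p = 0.129 from limma), and it did not pass. A dimmer probe set of Hadhb was 0.09 higher in the 2i pair.

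The 2 genes of the trifunctional protein lie head to head, and both signals were lower after Dox in all 4 pairs. The RefSeq promoter window of Hadha is shown, which holds most of the sequence between the 2 starts. Whether the shared sequence has a part in these signals was not tested. Promoter windows were taken from 250 bases before to 50 bases after each annotated start (RefSeq, GRCm38.p6). Hadha starts at position 30154980 of chromosome 5 on the minus strand, and 273 bases separate its start from that of Hadhb on the plus strand. Of 32851 promoter windows, 9.84% overlap in this way that of a gene pointing away on the other strand. Capitals mark the 228 bases of the Hadha window that also lie in the window of Hadhb:
Hadha, chr5:30154931-30155230, minus strand: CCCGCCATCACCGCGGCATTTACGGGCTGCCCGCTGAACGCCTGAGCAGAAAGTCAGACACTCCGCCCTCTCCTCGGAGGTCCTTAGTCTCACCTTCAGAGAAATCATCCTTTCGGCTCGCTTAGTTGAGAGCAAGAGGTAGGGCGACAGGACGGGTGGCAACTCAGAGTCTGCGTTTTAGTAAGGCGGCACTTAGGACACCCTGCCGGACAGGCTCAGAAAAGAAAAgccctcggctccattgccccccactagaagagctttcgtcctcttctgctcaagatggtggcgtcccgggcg

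Nuclear receptors are known regulators of fat oxidation: PPARs with RXR bind 2 copies of AGGTCA in the same direction with 1 base of any kind between them, and Esrrb and its relative Esrra bind TCAAGGTCA. Promoter windows of 28 of the 31 genes were in the RefSeq table, and Acaa2, Decr1 and Lpl were not. On both strands, 0 of the 28 genes held either motif in this window, and of all 32851 windows 0.0396% held the repeat and 0.423% the Esrrb motif. The single copy AGGTCA, which lies within both, was added after those counts were seen. It was found in Acadm, Acadvl, Cpt1a and Echs1, that is 4 of 28 genes or 4 of their 31 windows. Of all windows 16.3% held it, so the list showed no excess. A link between the Dox ratios and AGGTCA was not tested. The windows of Acadvl, called higher, and Cpt1a, lower by over 2-fold with the empty vector, show it in capitals, in Cpt1a on the other strand:
Acadvl, chr11:70015379-70015678, minus strand: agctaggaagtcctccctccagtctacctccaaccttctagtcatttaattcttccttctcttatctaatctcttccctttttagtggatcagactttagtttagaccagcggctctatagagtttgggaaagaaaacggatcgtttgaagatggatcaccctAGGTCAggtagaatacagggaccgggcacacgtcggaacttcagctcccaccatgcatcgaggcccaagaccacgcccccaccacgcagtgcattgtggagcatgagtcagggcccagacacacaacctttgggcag
Cpt1a, chr19:3323051-3323350, plus strand: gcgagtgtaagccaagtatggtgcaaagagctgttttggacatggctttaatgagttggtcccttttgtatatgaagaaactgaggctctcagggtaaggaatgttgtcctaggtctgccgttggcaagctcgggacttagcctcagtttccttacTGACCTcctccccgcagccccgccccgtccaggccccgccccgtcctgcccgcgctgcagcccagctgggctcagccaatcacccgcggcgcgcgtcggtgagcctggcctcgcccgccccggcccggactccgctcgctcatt

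Of the 3 genes of the carnitine shuttle, Cpt1a and Slc25a20 were higher after Dox in the 2i and Esrrb pairs and lower in the Nanog and empty vector pairs, a division that was not tested. Cpt1a encodes carnitine palmitoyltransferase 1A, the rate-limiting gate of entry into mitochondria. Its log2 signal on the Dox-treated arrays was 9.83 in 2i, 9.27 in Nanog, 9.82 in Esrrb and 8.50 in empty vector cells, against 9.42 in 2i, 9.53 in Nanog, 9.65 in Esrrb and 9.55 in empty vector cells on the Dox-untreated arrays. Only the Dox-treated empty vector array was below 9, and its other probe sets had log2 ratios of -1.09 and -1.10 in the empty vector pair, beside -1.05 for the brightest. Slc25a20 encodes the translocase that carries acylcarnitine across the inner membrane. It stood at 12.14 in 2i, 9.81 in Nanog, 10.60 in Esrrb and 9.56 in empty vector cells on the Dox-treated arrays, against 10.24 in 2i, 9.86 in Nanog, 10.34 in Esrrb and 9.67 in empty vector cells on the Dox-untreated arrays. The Dox-treated 2i array was the highest by 1.54 over the next, and the log2 ratio of its pair was 1.90, or 2.03 with the other probe set of the gene. Cpt2, the transferase that returns the chain to coenzyme A inside, was lower in 4 of 4 pairs, with log2 ratios from -0.49 to -0.02, and its common response was -0.27 (standard error 0.115; limma, adjusted p = 0.193).

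Among the other acyl-CoA dehydrogenases of the list, Acadl, for long chains, had log2 ratios of -0.59 in the 2i, -0.40 in the Nanog, -0.33 in the Esrrb and 0.09 in the empty vector pair. Acadm, for medium chains, lay between -0.25 and 0.25, and Acads, for short chains, between -0.36 and 0.23. Outside the list, and named after its values were seen, Acad11 of the same enzyme family had log2 ratios close to those of Acadvl, with 0.79 in the 2i, 0.47 in the Nanog, 0.70 in the Esrrb and 1.67 in the empty vector pair, and just missed the threshold (0.91, standard error 0.200; limma, adjusted p = 0.0525). The electrons of these enzymes pass through the flavoprotein of Etfa and Etfb to the oxidoreductase of Etfdh. Etfa and Etfb were lower in every pair, with all Dox-treated arrays below all Dox-untreated arrays, but neither was called (Etfa -0.29, adjusted p = 0.0893, and Etfb -0.43, adjusted p = 0.0631, from limma). Etfdh, the next carrier, was instead higher by 0.57 in the 2i and 0.82 in the empty vector pair, while the Nanog pair had -0.26 and the Esrrb pair 0.08.

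Besides Hadha, Hadhb, Etfa and Etfb, Cpt2 was the only member with all Dox-treated below all Dox-untreated arrays, so that 5 of 31 genes (16.1%) did so, against 8.96% of all genes. In the other direction 0 of 31 did, against 8.79% of all genes. Lower in 4 of 4 pairs were 10 of the 31, against 19.1% of all genes, and higher in 4 of 4 were 6, against 18.4%.

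The remaining mitochondrial genes act on double bonds or complete the cycle. Decr1, a reductase for unsaturated chains, had log2 ratios of -0.78 in the 2i, -0.76 in the Nanog, -0.12 in the Esrrb and -0.93 in the empty vector pair. Its common response of -0.65 missed the threshold (standard error 0.149, adjusted p = 0.0560 from limma), and passed it with the mean of its probe sets (-0.90, adjusted p = 0.0381 from limma), since the dimmer one was lower still. The hydratase Echs1 and the isomerase Eci1 stayed within 0.49 of 0 in each pair, and the dehydrogenase Hadh had log2 ratios from -0.25 to 0.54. Acaa2, a thiolase of the last step, had a log2 signal of 9.21 in 2i, 8.29 in Nanog, 9.94 in Esrrb and 7.48 in empty vector cells on the Dox-treated arrays. On the Dox-untreated arrays it was 8.63 in 2i, 7.83 in Nanog, 9.03 in Esrrb and 7.76 in empty vector cells. The order Esrrb, 2i, Nanog, empty vector held on both sets of arrays, with Nanog and empty vector only 0.07 apart on the Dox-untreated arrays. Its log2 ratios were 0.59 in the 2i, 0.46 in the Nanog, 0.91 in the Esrrb and -0.28 in the empty vector pair. The other probe sets of Acaa2, dimmer but above the median signal, had only 0.13 and -0.05 in the Nanog pair. In the remaining pairs they had the same signs as the brightest.

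**Figure D3:**
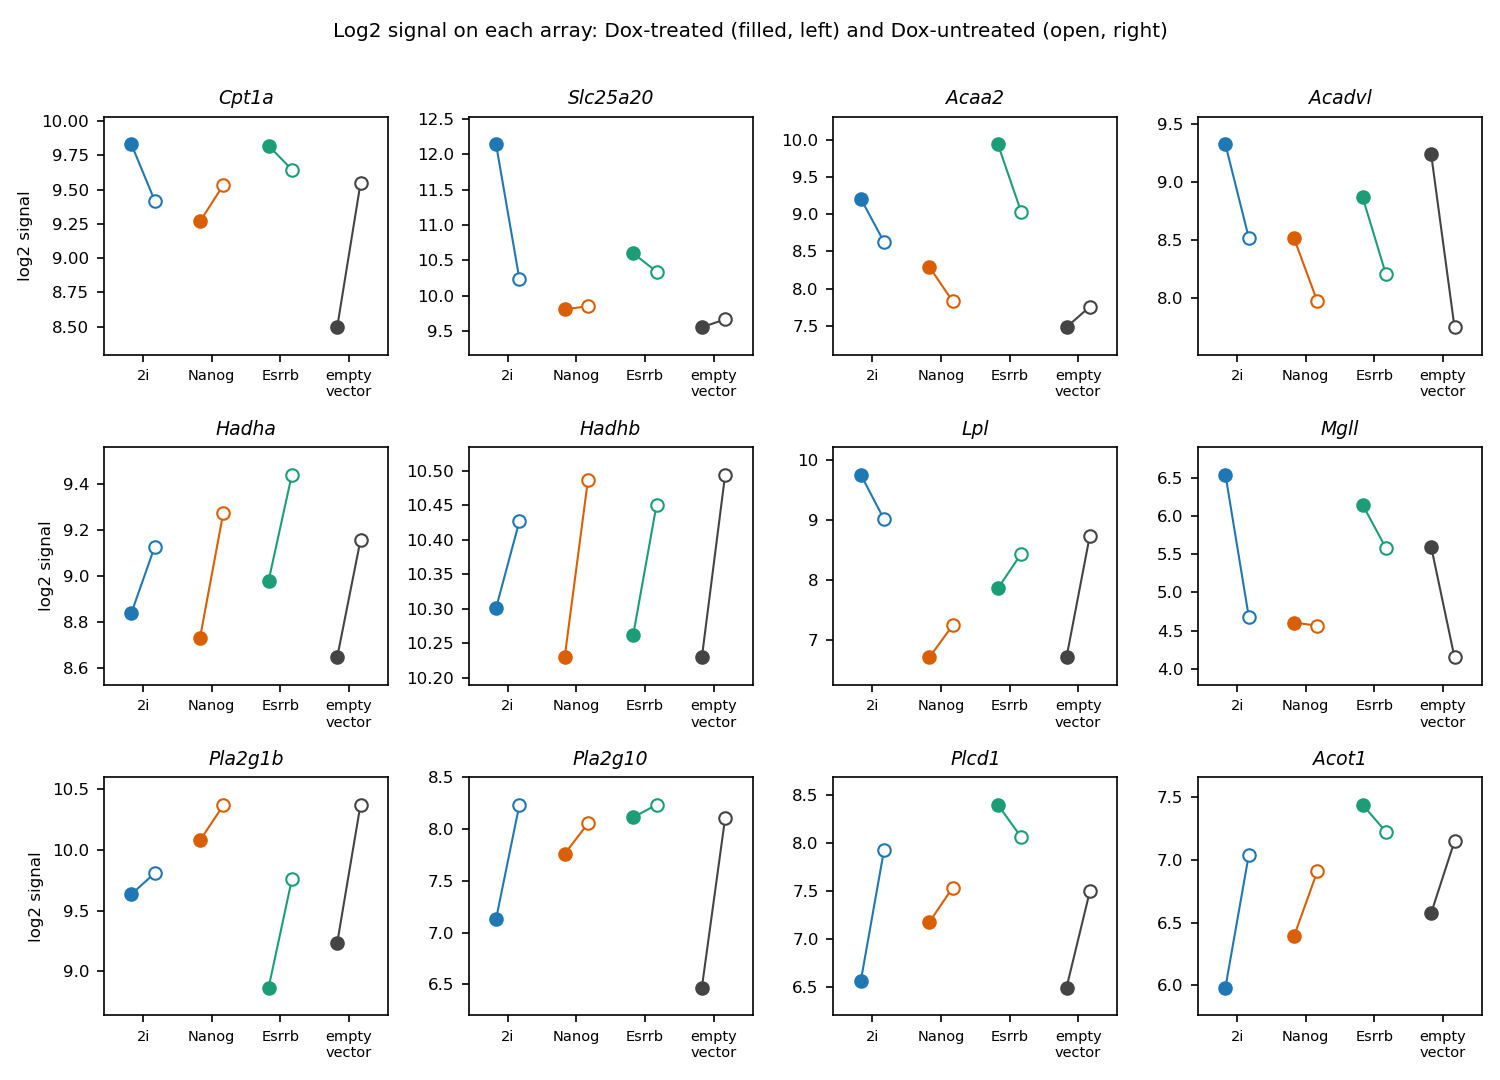
Log2 signal (vertical axes, a scale of its own for each gene) of 12 genes on the 8 arrays by background (horizontal axes), with filled points at left for Dox-treated and open points at right for Dox-untreated arrays and a line joining each pair. Every line of Acadvl and Mgll is higher at its Dox-treated end and every line of Hadha, Hadhb, Pla2g1b and Pla2g10 lower, while Cpt1a and Lpl differ in direction between backgrounds.

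The peroxisomal genes lay within 2-fold in every pair. Acaa1a, a thiolase, was higher in 4 of 4 pairs with log2 ratios of 0.06 to 0.45, and its common response was 0.30 (limma, adjusted p = 0.138). Acox3, an oxidase for branched chains, had 0.00 to 0.38, and Eci2, an isomerase found in peroxisomes and mitochondria, -0.04 to 0.51. Ehhadh, the bifunctional enzyme, had -0.60 in the empty vector pair but a signal of at most 5.72 on any array. Probe sets that carry the symbols of both Acaa1a and its close copy Acaa1b were not used. That does not remove shared probes. Both probe sets of Acaa1a end in _x_at, and with such probe sets left out Acaa1a was not measured (30 members remained). Signal of either transcript on the other's probes cannot be told apart here.

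Lpl encodes lipoprotein lipase, which frees fatty acids from circulating lipoproteins. Its log2 signal on the Dox-treated arrays was 9.75 in 2i, 6.71 in Nanog, 7.86 in Esrrb and 6.71 in empty vector cells, against 9.01 in 2i, 7.24 in Nanog, 8.44 in Esrrb and 8.74 in empty vector cells on the Dox-untreated arrays. In the empty vector pair Lpl was thus 4.07-fold lower after Dox, and in the 2i pair 1.68-fold higher. Nanog-overexpressing cells were low with or without Dox, and their Dox-untreated array was 1.49 below that of empty vector cells on the log2 scale. The other probe set of Lpl had the same signs in every pair, with 0.61 in the 2i and -1.79 in the empty vector pair.

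The lipases of stored fat act in turn as Pnpla2, Lipe and Mgll, which remove the chains of a triglyceride one after another. Pnpla2 and Lipe had log2 ratios from -0.09 to 0.42 over all pairs, and the signal of Lipe was at most 5.03. Mgll, monoglyceride lipase, stood at 6.55 in 2i, 4.61 in Nanog, 6.15 in Esrrb and 5.60 in empty vector cells on the Dox-treated arrays, against 4.68 in 2i, 4.56 in Nanog, 5.58 in Esrrb and 4.15 in empty vector cells on the Dox-untreated arrays. It was higher in 4 of 4 pairs, by 1.86 in the 2i and 1.45 in the empty vector pair and by only 0.04 in the Nanog pair. The common response was 0.98 (standard error 0.305, adjusted p = 0.106 from limma). Other probe sets of Mgll, also dim, ranged from -0.22 to 0.47 in the empty vector pair and from -0.14 to 0.98 in the 2i pair, so the mean of its probe sets was not over 2-fold in either. Lipa, the acid lipase of lysosomes, was higher in 4 of 4 pairs, with 0.51 in the 2i and 0.20 to 0.23 in the other pairs.

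Of the phospholipases, Pla2g1b and Pla2g10 encode secreted phospholipases A2 and Plcd1 a phospholipase C that splits phosphoinositides. Pla2g10 had a log2 signal of 7.13 in 2i, 7.76 in Nanog, 8.11 in Esrrb and 6.47 in empty vector cells on the Dox-treated arrays, against 8.24 in 2i, 8.05 in Nanog, 8.24 in Esrrb and 8.11 in empty vector cells on the Dox-untreated arrays. The Dox-untreated arrays lay within 0.18 of each other, and the Dox-treated 2i and empty vector arrays stood over 2-fold below their own. Plcd1 stood at 6.56 in 2i, 7.18 in Nanog, 8.40 in Esrrb and 6.50 in empty vector cells on the Dox-treated arrays, against 7.93 in 2i, 7.54 in Nanog, 8.06 in Esrrb and 7.50 in empty vector cells on the Dox-untreated arrays. The 2i pair had a log2 ratio of -1.37, the Nanog pair -0.36 and the Esrrb pair 0.34, and for the empty vector the signal was just past 2-fold lower. The other probe set had -0.57 and -0.79 in the 2i and empty vector pairs. Pla2g1b went another way. It was 9.63 in 2i, 10.08 in Nanog, 8.87 in Esrrb and 9.23 in empty vector cells on the Dox-treated arrays, against 9.81 in 2i, 10.37 in Nanog, 9.76 in Esrrb and 10.37 in empty vector cells on the Dox-untreated arrays. Its lowest array was the Dox-treated Esrrb array, and its log2 ratios were -0.89 in the Esrrb and -1.14 in the empty vector pair, against -0.17 in the 2i and -0.29 in the Nanog pair.

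Acot1, a thioesterase that releases free fatty acids from coenzyme A and a known PPAR target, had a log2 signal of 5.98 in 2i, 6.39 in Nanog, 7.44 in Esrrb and 6.58 in empty vector cells on the Dox-treated arrays. On the Dox-untreated arrays it lay between 6.91 and 7.23. Only the Esrrb array was not lower after Dox. Ppara, the receptor that drives oxidation genes in liver, stayed between 4.42 and 4.92 on all 8 arrays, below the median signal.

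The study asked whether forced Nanog or Esrrb changes what loss of NS does, and limma tested whether the response to Dox with a forced factor (Nanog and Esrrb pairs) minus that without one (2i and empty vector pairs) was different from 0. Of the 31 genes, 0 passed. Of all genes 0.0824% passed lower and 0% higher. At an unadjusted p under 0.05 from limma were 5 members. The response of Pla2g10, Plcd1 and Cpt2 was higher with a forced factor than without one, as for 7.86% of all genes. That of Mgll and Etfdh was lower, as for 7.94%. These signs are those of the difference. Pla2g10 and Cpt2 themselves were lower after Dox in 4 of 4 pairs, and Mgll was higher in 4 of 4. The difference was 1.16 for Pla2g10 (standard error 0.239, adjusted p = 0.105 from limma), 1.18 for Plcd1 (standard error 0.294, adjusted p = 0.146 from limma) and -1.35 for Mgll (standard error 0.282, adjusted p = 0.110 from limma). For Etfdh it was -0.79 (standard error 0.178, adjusted p = 0.124 from limma). Such a test has 2 residual degrees of freedom, and a p that misses the threshold does not show that the responses were alike. With any 1 pair left out, a single pair stands on 1 side of the difference and the spread comes from the other side alone. Only sizes are therefore given here. Without the 2i pair the difference was 1.43 for Pla2g10, 0.99 for Plcd1, -1.14 for Mgll and -0.91 for Etfdh. Over the 4 such fits it ran from 0.90 to 1.43 for Pla2g10 and from 0.83 to 1.52 for Plcd1. For Mgll it ran from -1.61 to -1.09 and for Etfdh from -0.95 to -0.62.

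The Dox-treated arrays were also set against each other. Against the Dox-treated empty vector array, Lpl, Slc25a20, Acaa2, Cpt1a and Ehhadh were over 2-fold higher on the Dox-treated 2i array, with differences of 3.04, 2.58, 1.73, 1.34 and 1.25. On the Dox-treated Esrrb array Acaa2, Plcd1, Pla2g10, Cpt1a, Lpl and Slc25a20 were, with 2.46, 1.90, 1.65, 1.33, 1.15 and 1.04. On the Dox-treated Nanog array only Pla2g10 was, with 1.29. These counts are 16.1% of the members for 2i, 19.4% for Esrrb and 3.23% for Nanog, where 3.14%, 3.59% and 3.22% of all genes were over 2-fold higher. Over 2-fold lower were 0 of the 31 on any of these arrays, against 2.58% of all genes for 2i, 3.68% for Nanog and 3.56% for Esrrb. The 3 comparisons share the empty vector array, so a low value on it enters all of them, and none has a replicate. The list was chosen with earlier results of these arrays in view, so its larger shares here are no independent evidence.

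**Figure D4:**
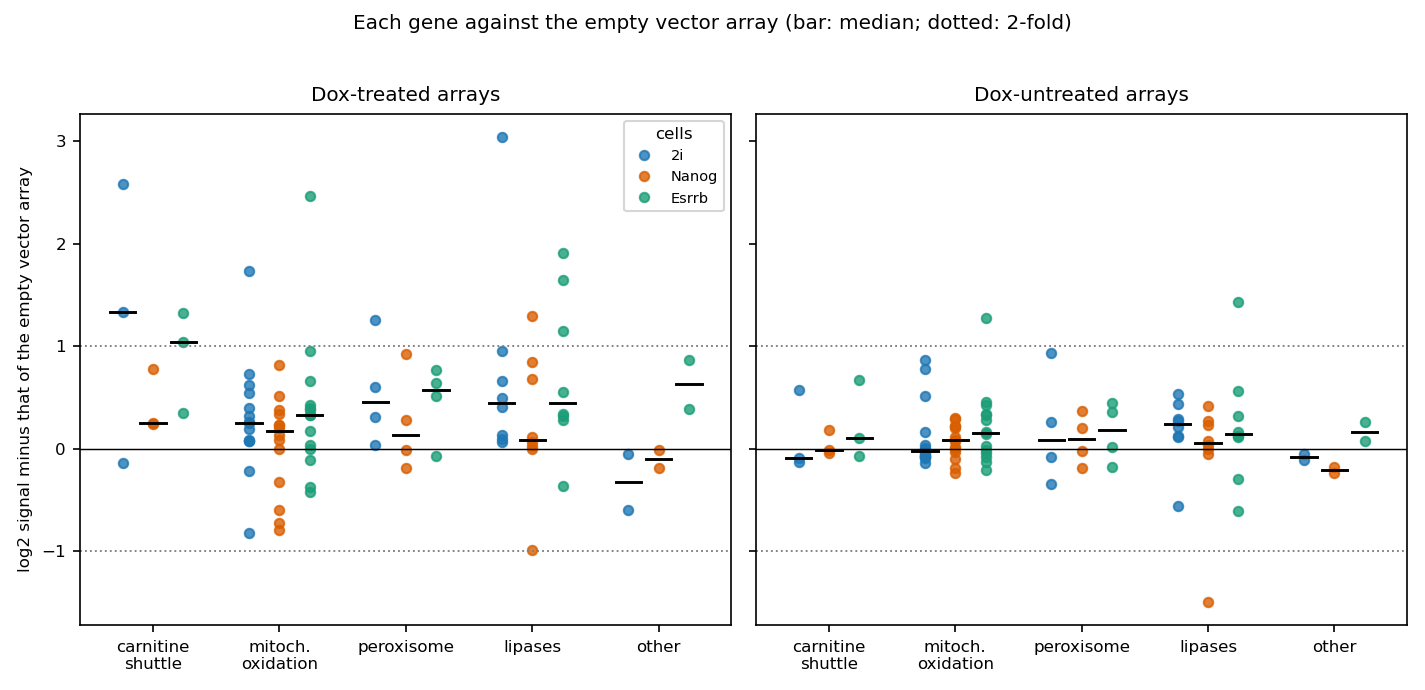
Log2 signal on the 2i, Nanog and Esrrb arrays minus that on the empty vector array (vertical axis) for the 31 genes by function (horizontal axis), on Dox-treated arrays at left and Dox-untreated arrays at right, with black bars for medians and dotted lines at 2-fold. Both genes of the carnitine shuttle above 2-fold at left, Cpt1a and Slc25a20, are above it in 2i as well as in Esrrb cells, and at right only Acaa2, Mgll and Lpl pass 2-fold.

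Before Dox the backgrounds were more alike. Against the Dox-untreated empty vector array, Mgll and Acaa2 were over 2-fold higher on the Dox-untreated Esrrb array, by 1.43 and 1.27, and Lpl over 2-fold lower on the Dox-untreated Nanog array. On the Dox-untreated 2i array, which went against its label in the check above, 0 were over 2-fold different. Of the genes over 2-fold higher on the Dox-treated 2i array, Ehhadh and Acaa2 already differed by 0.93 and 0.87 on the Dox-untreated one. Slc25a20, Lpl and Cpt1a differed there by 0.57, 0.27 and -0.13. Of all genes, 0.517% were over 2-fold higher and 0.242% lower on the 2i array, 0.434% higher and 0.253% lower on the Nanog array, and 1.26% higher and 0.561% lower on the Esrrb array. Primitive endoderm markers moved with the Esrrb background, 10 of 10 being above the median signal on its Dox-untreated array, against 3 of 10 on the empty vector array, and 10 of 10 were lower after Dox in the Esrrb pair. Their part in the Esrrb values of Acaa2 and Mgll was not tested.

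Beyond the 31 genes, 94 further genes of fat uptake, oxidation and lipid breakdown were listed and 85 measured. Over 2-fold lower were 6 in the 2i (7.06%, against 3.1% of all genes), 3 in the Nanog (3.53%, against 1.17%), 3 in the Esrrb (3.53%, against 0.967%) and 9 in the empty vector pair (10.6%, against 3.85%). Over 2-fold higher were 12 in the 2i (14.1%, against 4.81% of all genes), 1 in the Nanog (1.18%, against 1.13%), 3 in the Esrrb (3.53%, against 1.06%) and 9 in the empty vector pair (10.6%, against 5.36%). Those farthest from 0 in any pair included Acss1, a mitochondrial acetyl-CoA synthetase, with -1.99 in the 2i, -0.85 in the Nanog, -0.04 in the Esrrb and -4.52 in the empty vector pair. Ppargc1b, a coactivator of oxidation genes, had -1.65 in the 2i, -0.34 in the Nanog, -1.17 in the Esrrb and -2.59 in the empty vector pair. Slc27a2, an acyl-CoA synthetase of very long chains, had -2.52 in the 2i, 0.01 in the Nanog, -0.04 in the Esrrb and -1.42 in the empty vector pair. Plin2, which coats lipid droplets, was higher by 1.26 in the 2i and 2.33 in the empty vector pair, while the Nanog pair had -0.05 and the Esrrb pair -0.14. The fatty acid carrier Fabp5 was higher by 2.16 in the 2i pair, and by at most 0.10 in any other. Pla2g7, which cleaves oxidized phospholipids, had -3.93 in the 2i and 0.88 in the empty vector pair. The phospholipase Pla1a had 0.24 in the 2i and -2.34 in the empty vector pair. Hexa, a lysosomal enzyme of ganglioside breakdown, was lower in all 4 pairs, with log2 ratios from -3.45 to -0.79.

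In the test of the common response 1 of the 85 fell (1.18%, against 3.39% of all genes) and 7 rose (8.24%, against 3.69%), and 0 passed in the test of the difference. They are named after their values were seen. G0s2, an inhibitor of the lipase of Pnpla2, fell by 1.59 with a standard error of 0.120 (limma, adjusted p = 0.0139), all 4 log2 ratios lying between -1.88 and -1.40. Acaa1b, the close copy of Acaa1a, rose by 1.43 with a standard error of 0.142 and was higher in every pair (limma, adjusted p = 0.0172). Cpt1c, a brain form of the transferase, rose by 1.13 and the receptor Ppard by 0.93, with adjusted p of 0.0342 and 0.0423 from limma. The peroxisomal genes Cat, for catalase, and Decr2, a reductase, rose by 0.70 and 0.52, with adjusted p of 0.0287 and 0.0495 from limma. Pnpla6, a phospholipase, rose by 0.61 and Lipo3, listed under an older name, by 0.73, with adjusted p of 0.0483 and 0.0363 from limma.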

How the data were processed

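Total RNA from 8 conditions was labelled and measured on Affymetrix mouse arrays, 1 per condition. The deposited values are log2 signals that the authors computed by RMA (affy), a method that corrects background, brings all arrays to 1 distribution and combines the probes of each set. The version is not stated, and the log base was read as 2 from the range, 1.82 to 14.6. Quantile normalization hides a shift of all genes in 1 direction. Of 45101 probe sets, 34958 carry 1 symbol, 932 several and 9211 are unnamed here. For arrays, their number limits the precision.

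The members and lists were chosen with earlier results of these data known, and the study drew attention to lipid catabolism from these same arrays, so their direction is no independent evidence. Log2 ratios were taken within each background, and over 2-fold means beyond 1 or -1. limma 3.58.1 (lmFit, eBayes with a trend, R 4.3.3) treated the 4 backgrounds as repeats, each background having its own term, with 3 residual degrees of freedom for the common response and 2 for the difference. The labels do not say whether cultures were separate, so p-values measure only the spread between these arrays. Benjamini-Hochberg adjustment ran over 18194 genes. Named in full are members over 2-fold in a pair or between Dox-untreated arrays, or called by limma, and of other genes the 8 farthest from 0. Alternatives were other probe set choices, a filter on dim genes, centring, other thresholds and limma settings, and leaving out pairs.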

Additional observations from a re-analysis of the deposited data

Results flagged for a closer look

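Among the 31 genes, the log2 ratio of Lipa in 1 pair lay far from those in the other pairs, by Dixon's test at the 95% level. The 2i pair had 0.51. The Nanog pair had 0.22, the Esrrb pair 0.20 and the empty vector pair 0.23, and chance flags about 1 in 20 such groups of 4. Other probe sets of Lipa, all dimmer, had 0.55 and 0.43 for 2i, against 0.63 and -0.29 for the empty vector.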

How the results depend on the processing

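With 1 array per condition, the number of arrays limits what can be said, and genes near background give compressed ratios. With a threshold of 1.5-fold, 8 members were lower in the empty vector pair, 5 lower and 5 higher in the 2i pair, 1 lower in the Nanog pair, and 1 lower and 2 higher in the Esrrb pair. With 3-fold, 2 were lower and 0 higher in the empty vector pair and 0 lower in the 2i pair. When all probe sets of a gene were averaged, as with the filter on dim probe sets, 1 member was over 2-fold higher in each of the 2i and empty vector pairs, and averaging left 1 lower in the Nanog pair. Against the Dox-untreated empty vector array, 1 member was over 2-fold lower and 5 higher on the Dox-treated 2i array. The median of the 31 genes turned sign in the 2i pair with averaged probe sets (-0.07, against 0.05) and ran there from -0.07 to 0.21. It ran from -0.23 to -0.15 in the Nanog, from 0.08 to 0.16 in the Esrrb and from -0.31 to -0.20 in the empty vector pair, all less than the SD of 0.19 over the pairs away from the values given. For the common response, limma called 2 members lower with the mean of probe sets, 2 with centring and 3 with the filter, and 0 to 0 in either direction with 1 pair left out. Acadvl and Hadha passed in each of the other 7 fits, 1 of them without the replicate block. For the difference, 0 to 5 members were called lower and 0 to 6 higher with 1 pair left out, and 0 in the 6 other fits. Over all genes the difference called 15, against 0 to 171 in those 6 fits and 0 to 2222 with 1 pair left out. The replicate block (the background) is the main setting. Without it limma called 1272 genes for the common response, against 1287 with it. The cause of these changes was not tested, beyond fewer arrays, fewer genes or another threshold by construction.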
